A study of Homo sapiens with 16 samples.

Results

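The genes described here are RELA, RELB, REL, NFKB1 and NFKB2, which encode the 5 subunits of the NFκB family, out of 19970 protein-coding genes on the chromosomes analysed. They were chosen by gene family, by a rule that uses no measured value, but with earlier results of these data known. Signal was read in every 200-bp bin from 50000 bp upstream of each gene to 10000 bp downstream of it (GRCh38), which gave 2609 bins. A bin was listed in a group when the mean of its 3 ChIP libraries was at least 2 and at least 4 times the value in the matching input, and 27 of the 2609 bins were listed in at least 1 group.

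The tracks come from ChIP-Seq with an antibody against p65, the protein that RELA encodes, in HT29 and SW480, both established lines of human colorectal adenocarcinoma. The 4 ChIP groups were HT29 mock, HT29 ERβ, SW480 mock and SW480 ERβ, with 3 ChIP libraries and 1 input library each. Mock cells carried an empty vector and ERβ cells carried a construct of estrogen receptor β. All cells of all groups had been treated with TNFα at 30 ng/ml for 30 minutes and were crosslinked with DSG for 45 minutes and 1% formaldehyde for 10 minutes, so no library shows p65 without TNFα. Values are tag densities that the authors scaled to a fixed number of tags per library, and the depth of a library is unknown from them. The ERβ lines express the receptor from this construct, and the paper calls the receptor transduced. The study calls the replicates biological, while the sources used here do not say how their cultures were kept apart, so p-values measure the spread between these libraries. In a culture, p65 bound in fewer cells and less p65 bound per cell cannot be told apart.

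NFκB acts as dimers of these subunits. RELA, RELB and REL carry a transactivation domain, whereas NFKB1 and NFKB2 encode the precursors p105 and p100, which are processed to the DNA-binding subunits p50 and p52. In resting cells the dimers are held in the cytoplasm by IκB proteins, and TNFα leads to degradation of the IκBs and entry of p65 and p50 into the nucleus, where they bind κB sites. Several subunit and IκB genes are themselves textbook targets of NFκB, so that the pathway feeds back on its own components. NFKB2 and RELB are the subunits of the non-canonical branch of the pathway.

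The ERβ label was checked by the signal over coding exons of ESR2 relative to its introns, since a construct carries exons alone. The ratio lay between 3.32 and 5.60 in HT29 ERβ and between 2.17 and 2.62 in SW480 ERβ ChIP libraries, against 1.06 to 1.25 in HT29 mock and 1.21 to 1.53 in SW480 mock. Among the inputs it was 1.80 in HT29 ERβ and 1.06 in HT29 mock, but 1.60 in SW480 ERβ and 1.46 in SW480 mock, so the inputs of SW480 were hardly apart. Libraries stood apart in the level of enrichment. The median-ratio scaling factor over all tested bins was 1.74 and 1.48 in replicate 1 of HT29 mock and HT29 ERβ and 1.82 and 1.63 in replicates 2 and 3 of SW480 ERβ, against 0.614 to 0.968 in the other 8 libraries. Replicate 1 was the highest HT29 mock library in 26 of the 27 listed bins and the highest HT29 ERβ library in 27 of 27, and replicate 1 of SW480 ERβ was the lowest of its group in 24 of 27. The track headers of the 6 HT29 ChIP libraries carry a code that those of the SW480 libraries lack, and what it marks is not given in the sources used here.

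The sequences under the signal are shown first, since they carry the sites that the values below refer to. Matches to the 10-base κB consensus, exact and on either strand, were found at 16 positions in the listed bins, which make 13 separate sites once overlapping positions are joined. Of these 13 sites, 8 lay within 60 bp of a summit, the highest base of the mean of the 12 libraries. The sites nearest to each summit are given below 5′ to 3′ with 10 bases on either side and the consensus match in capitals, on the strand of the match, in GRCh38 coordinates.
NFKB1 promoter, chr4:102501300-102501329: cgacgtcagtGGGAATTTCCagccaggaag
NFKB2 upstream summit, chr10:102394461-102394490: gaaacgtcatGGGAATTCCCccctccgggg
NFKB2 upstream summit, chr10:102394490-102394519: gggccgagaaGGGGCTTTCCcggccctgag
NFKB2 downstream summit, chr10:102395674-102395703: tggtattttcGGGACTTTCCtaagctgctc
RELA past the 3′ end, minus strand, chr11:65652913-65652942: cagcgtctggGGAAAATCCCcgccgaggcc
RELB promoter, chr19:45001323-45001352: gtgacgcgtgGGGGTTTTCCcgttccccag
RELB upstream bin in CLPTM1, chr19:44991115-44991144: agggctacctGGAAATTCCCcctgcccggc
REL promoter, chr2:60881517-60881546: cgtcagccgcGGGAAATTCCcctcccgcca

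The RELA promoter bin was the one summit bin of the 8 without a consensus match, and no match lay within 1000 bp of its summit. A looser form, which also leaves free the bases on either side of the open central base of the consensus, matched there at chr11:65663280-65663309 on the minus strand, 69 bp from the summit, and is shown for comparison.
RELA promoter, looser form: aggcccggtcGGGCTTTTCCctgcgcgggg

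Summits lay close to the matches. The distance from the summit of the mean to the nearest match was 12 bp at RELB, 13 bp at the NFKB2 upstream summit, 18 bp at NFKB1, 22 bp at the NFKB2 downstream summit, 25 bp at REL and 58 bp at the RELA site past the 3′ end. The summit of each single library lay within 50 bp of a match in 12 of 12 libraries at RELB, REL, NFKB1 and the NFKB2 upstream summit, in 10 of 12 at the NFKB2 downstream summit and in 6 of 12 at the RELA site past the 3′ end. A consensus match was held by 12 of the 27 listed bins (44.4%), against 3.95% of the 2609 bins of the windows, 3.04% of all bins of the genome and 49.5% of the 5689 tested bins defined below. A match alone did not mark a listed bin, since 91 bins of the 5 windows held one and were not listed. The AP-1 sequences TGACTCA and TGAGTCA, were held by 1 of the 27 listed bins, against 3.60% of the bins of the windows and 11.2% of the tested bins.

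**Figure D1:**
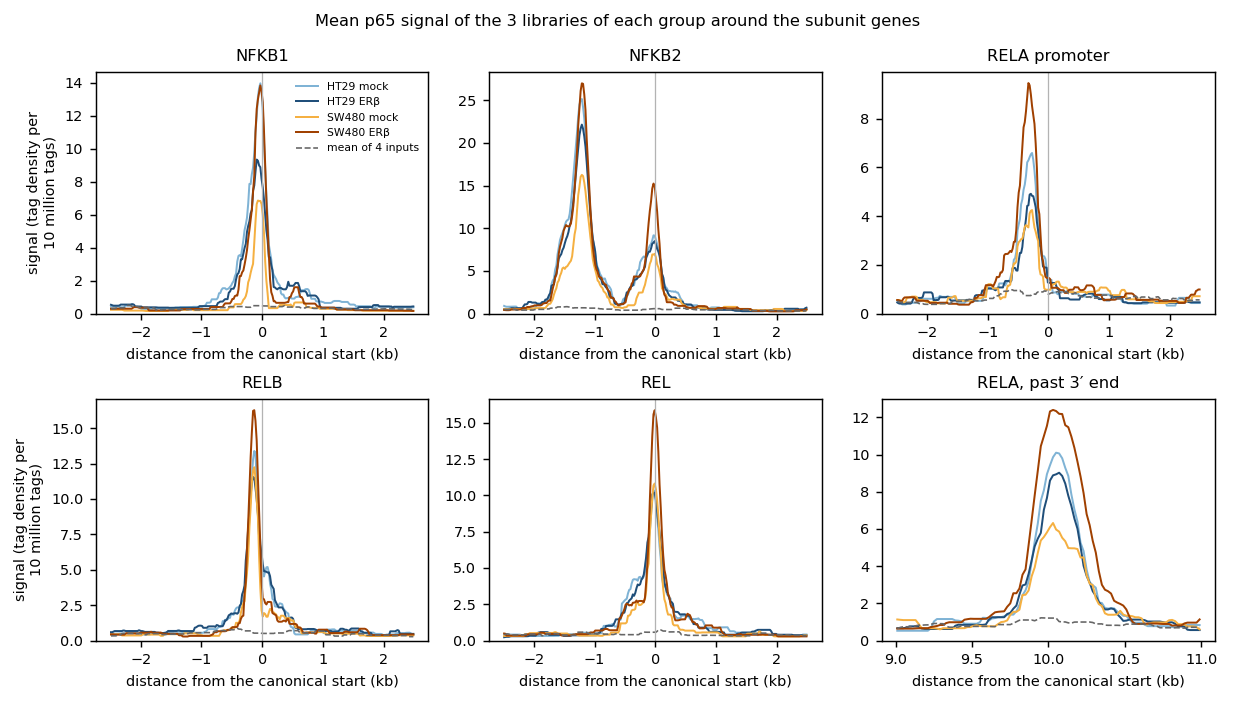
Mean signal of the 3 ChIP libraries of each group in 20-bp steps against the distance from the canonical transcript start in kb, with the mean of the 4 inputs dashed. NFKB2 has 2 summits, NFKB1, RELB and REL have 1 at the start, and RELA has 1 at the promoter and a higher one past the end of the gene.

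NFKB1 (ENSG00000109320.14, chromosome 4 from 102501330 to 102617302, plus strand) had a single stretch of 4 listed bins over its start. In the bin with the highest mean, which covers the first annotated start, the HT29 mock libraries measured 17.7, 8.88 and 9.12 and the HT29 ERβ libraries 12.2, 5.04 and 7.72. The SW480 mock libraries measured 3.63, 5.44 and 8.24 and the SW480 ERβ libraries 7.55, 15.0 and 12.6. The SW480 mock values all lay under the HT29 mock values, while the other pairs of groups overlapped. A lncRNA without a symbol (ENSG00000260651) starts on the opposite strand 14 bp from the summit, so the signal lies over both starts. A further start 539 bp downstream of the canonical one, used by 1 protein-coding transcript, reached 1.29 at its highest point (mean of 12 libraries), and another, 2016 bp downstream, reached 0.331.

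NFKB2 (ENSG00000077150.21, chromosome 10 from 102394110 to 102402524, plus strand) had the most listed bins, 9, in 1 stretch with 2 summits. The upstream summit lay 1215 bp before the canonical start, beside the start of a longer transcript that begins at 102394503 and in an exon of the one that begins at 102394110. Its bin measured 31.2, 16.6 and 19.1 in HT29 mock, 28.2, 14.3 and 16.8 in HT29 ERβ, 12.5, 15.7 and 14.8 in SW480 mock and 13.1, 34.0 and 22.9 in SW480 ERβ. With a mean of 19.9 it ranked 3 among the 5689 tested bins of the genome. The downstream summit lay 38 bp before the canonical start at 102395705, and its bin measured 12.2, 6.35 and 5.69 in HT29 mock, 12.04, 5.97 and 4.74 in HT29 ERβ, 7.10, 6.58 and 4.38 in SW480 mock and 8.17, 18.2 and 9.82 in SW480 ERβ. At both summits the SW480 ERβ libraries spread most, and at the downstream one all 3 of them lay above the SW480 mock libraries. The bin of the downstream summit was described separately after its values had been seen, since the rule joins the 2 summits into 1 stretch.

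Both NFKB2 promoters were therefore covered in every group, and their balance was measured within each library. The downstream bin held 0.357 ± 0.052 of the upstream value in HT29 mock (SD, n = 3), 0.375 ± 0.081 in HT29 ERβ, 0.428 ± 0.136 in SW480 mock and 0.531 ± 0.098 in SW480 ERβ. The ERβ and mock ratios overlapped within each line, while those of SW480 ERβ (0.430 to 0.625) lay just above those of HT29 ERβ (0.282 to 0.427). This separation was narrow and was not tested. How often ratios of neighbouring summits lie apart elsewhere in the genome was not measured.

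RELA (ENSG00000173039.20, chromosome 11 from 65653599 to 65663090, minus strand) encodes p65 itself and was the one member with 2 separate strong stretches. At the promoter the summit lay 310 bp before the canonical start, over the start region of the divergent lncRNA RELA-DT, which has annotated starts as near as 39 bp. The promoter bin measured 8.07, 3.50 and 4.63 in HT29 mock, 5.16, 2.19 and 3.62 in HT29 ERβ, 3.20, 3.64 and 3.59 in SW480 mock and 4.28, 9.75 and 9.39 in SW480 ERβ. All 3 SW480 ERβ libraries lay above the SW480 mock libraries.

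The second RELA stretch lay between RELA and SIPA1, and its summit was 729 bp past the 3′ end of RELA, 10046 bp from the canonical start and in no annotated exon. Its highest bin measured 12.3, 6.76 and 7.57 in HT29 mock, 12.3, 5.49 and 5.64 in HT29 ERβ, 4.96, 7.41 and 4.55 in SW480 mock and 6.50, 15.0 and 12.9 in SW480 ERβ. This bin exceeded the promoter bin of the same library in all 12 libraries, by 1.70 ± 0.21 times in HT29 mock, 2.15 ± 0.51 in HT29 ERβ, 1.62 ± 0.39 in SW480 mock and 1.48 ± 0.09 in SW480 ERβ (SD, n = 3). It was listed in all 4 groups, whereas the promoter bin was listed in HT29 mock and SW480 ERβ only and missed the limit of 4 narrowly elsewhere, at 3.92 times input in HT29 ERβ and 3.90 times in SW480 mock. The bin past the 3′ end was itself just inside the limit in SW480 mock, at 4.28 times input. Input signal over the RELA window was 1.51 to 1.85 times the genome mean in the 4 inputs, which raises the value a bin needs there. The whole bin is shown because it is the strongest site of the family away from a promoter, with its plus strand read and the match in capitals.
RELA past the 3′ end, chr11:65652801-65653000: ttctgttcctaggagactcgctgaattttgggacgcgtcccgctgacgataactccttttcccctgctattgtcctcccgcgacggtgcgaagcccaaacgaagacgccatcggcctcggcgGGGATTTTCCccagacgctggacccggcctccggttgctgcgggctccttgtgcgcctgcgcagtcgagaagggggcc

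RELB (ENSG00000104856.15, chromosome 19 from 45001461 to 45038192, plus strand) had its summit 138 bp before the canonical start. The promoter bin measured 15.1, 8.32 and 7.27 in HT29 mock, 13.8, 7.77 and 7.64 in HT29 ERβ, 10.8, 10.3 and 6.85 in SW480 mock and 8.35, 18.2 and 11.1 in SW480 ERβ. All pairs of groups overlapped, and the bin was listed in every group. An upstream bin at chr19:44991001-44991200, in an intron of CLPTM1, was listed in SW480 ERβ alone. It measured 1.38, 1.29 and 4.18 there, 0.340, 0.260 and 0.870 in SW480 mock, 1.85, 0.732 and 2.17 in HT29 mock and 1.52, 1.27 and 1.51 in HT29 ERβ, so that the mean of 2.28 in SW480 ERβ rested on replicate 3. Its mean was under 4 times that of the inputs, so it did not enter the comparisons. No test of SW480 ERβ against another group is given, since the bin was listed only through SW480 ERβ. With the filter at 0.7 and no input limit it was called lower in SW480 mock than in HT29 mock (-0.77, limma adjusted p = 0.0126). Of all bins tested with this filter 25.4% were called lower in that comparison.

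REL (ENSG00000162924.16, chromosome 2 from 60881491 to 60931612, plus strand), which encodes c-Rel, had its summit 16 bp before the canonical start, inside an exon of transcripts that start further upstream. The promoter bin measured 12.5, 5.35 and 6.40 in HT29 mock, 13.7, 6.10 and 5.34 in HT29 ERβ, 8.11, 8.19 and 6.77 in SW480 mock and 7.04, 14.2 and 10.7 in SW480 ERβ. The groups overlapped in each comparison. The divergent lncRNA REL-DT starts 165 bp from the summit.

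**Figure D2:**
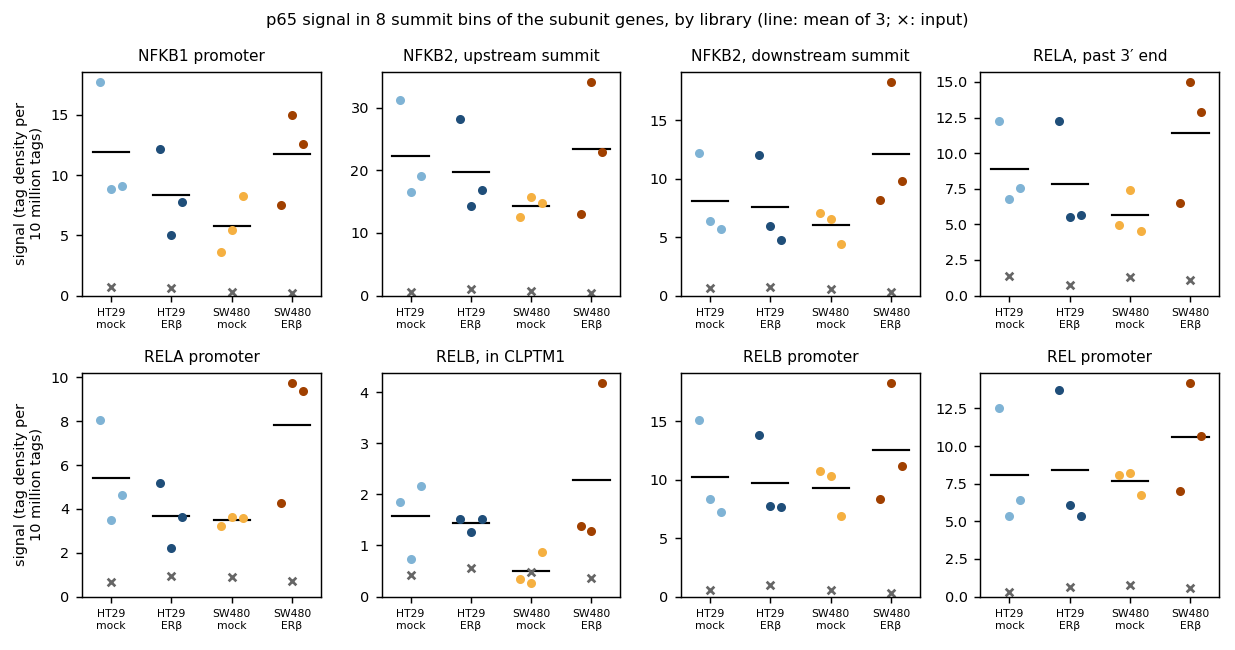
Signal in the bin of each summit, one point per ChIP library, with the mean of 3 libraries as a line and the input of the group as a cross. The upstream NFKB2 summit is highest in each group, and replicate 1 of both HT29 groups and replicates 2 and 3 of SW480 ERβ sit above the other libraries of their group in most panels.

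The order of the 5 genes at their leading promoter bin, all of the same length, was read within libraries. NFKB2 was the highest and RELA the lowest of the 5 in 12 of 12 libraries, and the ranks between them were less fixed, with RELB at 2 to 3, REL at 3 to 4 and NFKB1 at 2 to 4. NFKB2 exceeded the next gene by 0.93 ± 0.13 on the log2 scale in HT29 mock (SD, n = 3), 1.02 ± 0.13 in HT29 ERβ, 0.64 ± 0.45 in SW480 mock and 0.86 ± 0.20 in SW480 ERβ. The neighbours REL and NFKB1 did not differ beyond their spread in HT29 ERβ (-0.03 ± 0.44) and SW480 mock (0.49 ± 0.73), nor did RELB and NFKB1 in SW480 ERβ (0.08 ± 0.24). In each group RELA lay under its neighbour in 3 of 3 libraries, by 0.57 ± 0.09 in HT29 mock, 1.18 ± 0.07 in HT29 ERβ, 0.65 ± 0.51 in SW480 mock and 0.48 ± 0.27 in SW480 ERβ. The order also depends on the input, which differs between the loci. Divided by the local input, NFKB1 was close to NFKB2 in SW480 mock (10.6 and 10.8) and in SW480 ERβ (18.8 and 20.95), and NFKB2 stayed apart in HT29 mock (20.9 against 9.28) and HT29 ERβ (16.1 against 7.68 at REL, the next). Over the 12 libraries the leading promoter bins ranked 94 for RELB, 131 for NFKB1, 165 for REL and 830 for RELA among the 5689 tested bins, and the RELA bin past the 3′ end ranked 185.

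Of the 10 clusters of protein-coding transcript starts of the 5 genes, starts at most 500 bp apart being joined, 7 had a listed bin within 500 bp. For 1 of the 7, the NFKB1 start 539 bp downstream, these bins belong to the stretch over the main start, and its own highest point was 1.29. The 3 without one were the NFKB1 start 2016 bp downstream, a RELA start 3173 bp downstream (0.630 at its highest point, mean of 12 libraries) and a RELB start 31244 bp downstream (0.469). No bin was listed within 1000 bp of a start of the protein-coding neighbours in the windows, which were KAT5, CLASRP, CLPTM1, GBF1 and PSD, and their highest bins ranged from 0.397 at PSD to 1.71 at KAT5.

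Bins were listed in HT29 mock at 24 of the 2609 positions, in HT29 ERβ at 21, in SW480 mock at 12 and in SW480 ERβ at 23. Over the whole genome 0.0404%, 0.0268%, 0.00989% and 0.0632% of bins were listed in these groups, so the lowest count fell in the same group. By gene, 4, 2, 1 and 5 bins were listed for RELA in the 4 groups in that order, 3, 3, 2 and 3 for RELB, 4, 5, 2 and 4 for REL, 4, 2, 1 and 3 for NFKB1 and 9, 9, 6 and 8 for NFKB2. Every promoter kept at least its leading bin in every group except RELA. The study took its ERβ inputs from another series of libraries. Whether ERβ and mock inputs were prepared alike is not known here, and listing depends on the input.

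The comparisons between groups used the 5689 bins of the genome whose mean log2(signal + 1) over the 12 ChIP libraries was at least 1 and whose mean was at least 4 times that of the inputs. Of the 27 listed bins 23 met this filter, and a bin was called when limma gave an adjusted p under 0.05 over all 5689. Differences are on the scale of log2(signal + 1), which understates changes of low bins. Exact permutation tests of 3 libraries against 3 cannot go below a p of 0.1.

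ERβ in HT29 made no difference that was called. Of the 23 bins of the subunit genes 0 were called, and 0% of all tested bins were called higher and 0% lower. At an unadjusted p under 0.05 the count among the 23 was 0, against 0.686% of all tested bins. Replicate 1 stood above the other libraries in both HT29 groups, and this spread widens the error of each difference. A count of 0 therefore does not show that ERβ had no effect at these bins. The 23 differences had a median of -0.18, as against -0.17 over all tested bins, and ran from -0.48 to 0.08. The largest were at NFKB1 (-0.48 ± 0.39 SE, adjusted p = 0.999, 95% interval -1.25 to 0.30, exact p = 0.4) and at the RELA promoter (-0.45 ± 0.38, adjusted p = 0.999, interval -1.20 to 0.30, exact p = 0.5). The groups overlapped at both bins. With the replicate number as a block no bin of the subunit genes was called either.

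In SW480 the difference between ERβ and mock was above 0 at 21 of the 23 bins, and few of these passed the test. Of the 23 bins 3 were called higher and 0 lower, while 27.4% of all tested bins were called higher and 0% lower. The called bins were those on both sides of the NFKB1 summit bin, with differences of 0.97 ± 0.37 (adjusted p = 0.039) and 1.13 ± 0.35 (adjusted p = 0.011), and 1 bin of NFKB2 between its 2 summits, with 1.03 ± 0.35 (adjusted p = 0.019). The median of the 23 differences was 0.58, under the 0.65 over all tested bins, and 8 of the 23 had all ERβ libraries above all mock libraries, against 48.3% of all tested bins.

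The mean of the NFKB1 summit bin in SW480 ERβ was 2.03 times that in SW480 mock, which did not pass the test (0.92 ± 0.39, adjusted p = 0.062, exact p = 0.2). Those at the RELA promoter (0.91 ± 0.38, adjusted p = 0.058, exact p = 0.1), past the RELA 3′ end (0.86 ± 0.39, adjusted p = 0.079, exact p = 0.2) and at the downstream NFKB2 summit (0.84 ± 0.39, adjusted p = 0.084, exact p = 0.1) also did not pass. The differences at the upstream NFKB2 summit (0.57 ± 0.39, adjusted p = 0.22), REL (0.38 ± 0.39, adjusted p = 0.41) and RELB (0.35 ± 0.39, adjusted p = 0.45) were under the median of all tested bins. With the replicate number as a block 15 of the 23 bins were called higher, as were 72.4% of all tested bins, and among them the adjusted p was 8.58e-05 at the NFKB1 summit bin, 7.81e-05 at the RELA promoter, 0.000217 past the RELA 3′ end and 0.018 and 0.000283 at the upstream and downstream NFKB2 summits. The summit bins of REL (0.10) and RELB (0.13) were not called with the block, but the bin after each summit was, with 0.51 at REL (adjusted p = 0.025) and 0.46 at RELB (adjusted p = 0.040). Divided by the local input over 100 kb, 8 bins were called higher, beside 37.1% of all tested bins, among them the RELA promoter (0.97, adjusted p = 0.025), the bin past the RELA 3′ end (0.95, adjusted p = 0.040) and the downstream NFKB2 summit (1.05, adjusted p = 0.031).

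The direction of these differences depended on the scaling. When each library was divided by its median ratio over the tested bins, the median of all tested bins moved from 0.65 to -0.03, and 3 bins, 2 of NFKB2 and 1 of RELB, were called lower in SW480 ERβ and 0 higher, beside 3.37% of all tested bins lower and 6.52% higher. The summit differences were then 0.06 at NFKB1, 0.09 at the RELA promoter, near 0 past the RELA 3′ end, -0.35 and -0.02 at the NFKB2 summits, -0.50 at REL and -0.54 at RELB, none of them called. Which scaling is right was not tested. The 3 calls also rested on single libraries, since 0 bins were called without replicate 2 or without replicate 3 of SW480 ERβ (9.67% of all tested bins in each) or without replicate 1 of SW480 mock (9.23%), and 1 without replicate 2 of SW480 mock (12.8%). The count was 10 without replicate 1 of SW480 ERβ (54.5%) and 8 without replicate 1 of HT29 mock (38.1%) or of HT29 ERβ (38.8%). Without replicate 1 of both HT29 groups, 11 were called, as were 54.5% of all tested bins.

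**Figure D3:**
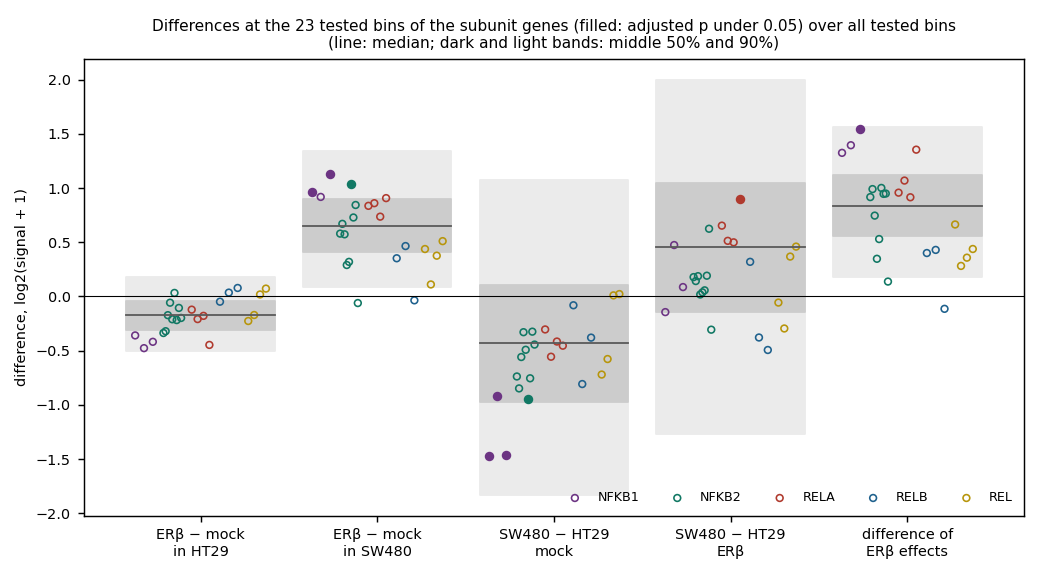
Differences in log2(signal + 1) at the 23 tested bins of the subunit genes for 5 comparisons, coloured by gene and filled where the adjusted p is under 0.05, over the median, middle 50% and middle 90% of all 5689 tested bins. The 3 points of NFKB1 and the RELA promoter bin lie outside the middle 50% in both ERβ comparisons and in their difference. That difference follows from the ERβ comparisons, and the NFKB1 points are neighbouring bins of a single stretch. Between the mock groups the NFKB1 points lie at -1.47, -0.92 and -1.46.

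The ERβ difference of SW480 was above that of HT29 at 22 of the 23 bins and below it at 1. It was called higher at 1 bin and lower at 0, against 9.79% and 0% of all tested bins. The median of the 23 values was 0.91, against 0.83 over all tested bins. The called bin covers the first part of the NFKB1 transcript, from 102501401 to 102501600 on chromosome 4. Its libraries measured 5.69, 3.72 and 3.03 in HT29 mock, 5.76, 1.06 and 2.83 in HT29 ERβ, 0.709, 0.901 and 0.875 in SW480 mock and 2.36, 3.47 and 3.25 in SW480 ERβ. The SW480 groups did not overlap and the HT29 groups did, and the difference between the effects was 1.55 ± 0.50 (adjusted p = 0.033). At the summit bins it was 1.39 ± 0.56 at NFKB1 and 1.35 ± 0.54 at the RELA promoter (adjusted p = 0.075 for both) and 0.36 ± 0.56 at REL (adjusted p = 0.58). With the replicate block 14 bins and 68.2% of all tested bins were called, and the adjusted p was 4.60e-05 at the NFKB1 summit bin, 5.61e-05 at the RELA promoter, 0.00151 past the RELA 3′ end and 0.0313 and 0.00451 at the upstream and downstream NFKB2 summits. Divided by the local input 4 bins were called, beside 28.5%, with the RELA promoter (1.55, adjusted p = 0.018) and the bin past the RELA 3′ end (1.38, adjusted p = 0.044) among them. With the median-ratio scaling 0 bins were called, beside 1.28% of all tested bins higher and 0.246% lower, and the values at NFKB1 and the RELA promoter were 0.31 and 0.33. The 1 call became 0 without replicate 1 of HT29 mock, replicate 2 or 3 of HT29 ERβ, any 1 library of SW480 mock, or replicate 2 or 3 of SW480 ERβ, where 1.30 to 8.09% of all tested bins were called. It became 11 without replicate 1 of HT29 ERβ (46.9% of all tested bins) and 7 without replicate 1 of SW480 ERβ (39.4%).

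Between the lines, NFKB1 held the 2 lowest of the 23 differences in mock cells. Between SW480 mock and HT29 mock, 4 of the 23 bins were called lower in SW480 and 0 higher, against 31.3% of all tested bins lower and 8.65% higher. Of these 4, 3 were the summit bin of NFKB1 and the bins on both sides of it, with differences of -1.47 ± 0.37 (adjusted p = 0.000484), -0.92 ± 0.39 (adjusted p = 0.049, exact p = 0.1) and -1.46 ± 0.35 (adjusted p = 0.000263), and 1 was the NFKB2 bin between the summits (-0.94 ± 0.35, adjusted p = 0.022). All SW480 mock libraries lay under all HT29 mock libraries at 9 of the 23 bins, against 40.9% of all tested bins. The other summit bins ran from -0.56 at the upstream NFKB2 summit and past the RELA 3′ end to 0.01 at REL, with adjusted p between 0.26 and 0.99.

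The input moved with the NFKB1 result. Over the NFKB1 window it was 0.565 and 0.625 times the genome mean in the SW480 mock and ERβ inputs and 1.25 and 1.15 times in those of HT29. Divided by the local input over 100 kb, the NFKB1 summit bin measured 9.28 in HT29 mock, 7.46 in HT29 ERβ, 10.6 in SW480 mock and 18.8 in SW480 ERβ, and the difference between the mock groups was 0.18 (adjusted p = 0.75), so that its direction reversed and no NFKB1 bin was called. With this division 4 NFKB2 bins were called lower in SW480 mock, where 1 had been without it, beside 34.0% of all tested bins called lower. With the replicate block the NFKB1 summit bin was not called (-0.92 ± 0.43, adjusted p = 0.077), nor without replicate 1 of both HT29 groups (-0.62, adjusted p = 0.12). Between lines this block gives a replicate number the same effect in HT29 and SW480, and whether the lines share it was not checked. The call was also lost without replicate 1 or 3 of HT29 mock, replicate 2 or 3 of HT29 ERβ, replicate 1 or 2 of SW480 mock, or replicate 2 or 3 of SW480 ERβ, and 2 of the 23 bins were called lower without replicate 1 of HT29 mock (19.4% of all tested bins) or of SW480 mock (22.1%). The bins on both sides of the NFKB1 summit bin remained called lower with the block (adjusted p = 0.00148 and 0.000754), with the median-ratio scaling (-1.07 and -1.10, adjusted p = 7.22e-05 and 3.97e-05) and without replicate 1 of both HT29 groups (-1.17 and -1.25, adjusted p = 0.00378 and 0.000701). With the median-ratio scaling the values were -0.37 at NFKB1 (adjusted p = 0.066), 0.58 at REL (adjusted p = 0.0039) and 0.49 at RELB (adjusted p = 0.021), and the median of all tested bins moved from -0.43 to 0.01. Of the 23 bins 3 were then called higher in SW480 mock, 2 of REL and 1 of RELB, and 3 lower, beside 29.1% of all tested bins higher and 29.4% lower.

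Between SW480 ERβ and HT29 ERβ 1 of the 23 bins, the RELA promoter bin, was called higher in SW480 and 0 lower, against 33.7% of all tested bins higher and 10.8% lower. The difference was 0.90 ± 0.38 (adjusted p = 0.043, exact p = 0.2), and 2 of the 3 SW480 libraries lay above all those of HT29. It was not called with the replicate block (adjusted p = 0.069), with the median-ratio scaling (0.39, adjusted p = 0.070) or without 8 of the 12 single libraries, namely replicate 3 of HT29 mock, replicates 2 and 3 of HT29 ERβ and of SW480 ERβ, and each library of SW480 mock. Of the 23 bins 5 were called higher without replicate 1 of HT29 ERβ (44.8% of all tested bins) and 2 without replicate 1 of SW480 ERβ (42.4%). Divided by the local input, the NFKB1 summit bin moved from 0.47 (adjusted p = 0.33) to 1.24 (adjusted p = 0.011) and was called higher beside the RELA promoter (0.88, adjusted p = 0.037), as were 31.99% of all tested bins. The median of the 23 differences was 0.18, against 0.46 over all tested bins. With the median-ratio scaling 8 bins were called lower and 0 higher, beside 28.4% of all tested bins lower and 29.2% higher. Among the 8 was the upstream NFKB2 summit (-0.39, adjusted p = 0.024). The comparisons within and between lines share the same libraries and are not independent of each other.

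The shape of the signal was compared within libraries, which leaves the scaling out, by a measure chosen after the values had been seen. The share of the summit bin in the signal of itself and the bin on either side was 51.7 to 57.6% in the 6 HT29 libraries and 65.1 to 70.4% in the 6 SW480 libraries at RELB, so that all SW480 libraries lay above all those of HT29. Among the 3541 local maxima of the tested bins 7.88% did so. At NFKB1 the ranges met, from 46.5 to 60.7% in HT29 and from 59.8 to 73.3% in SW480. At REL they were 43.7 to 51.2% and 48.9 to 58.3%, at the RELA promoter 34.3 to 51.1% and 40.7 to 49.9%, and at the upstream and downstream NFKB2 summits 47.3 to 55.3% and 39.8 to 58.8% in HT29 against 50.1 to 58.6% and 42.1 to 63.7% in SW480. Past the RELA 3′ end the SW480 range was the lower one, 43.1 to 51.3% against 49.4 to 57.2% in HT29. The share of the leading bin in its whole listed stretch was also read. It was 41.1 to 55.8% in HT29 and 56.3 to 70.5% in SW480 at NFKB1, and 34.8 to 38.8% and 39.1 to 49.9% at REL. By this share the lines were apart at NFKB1 and REL as well as at RELB, and overlapped at NFKB2 and at both RELA stretches. How often stretches elsewhere in the genome do so was not measured. The stretches of NFKB1, REL and RELB each hold a bin that was listed in HT29 groups only. Such bins add to the HT29 total and lower its share, so this separation is partly set by the listing rule. The bin after the RELB summit, which covers the transcript start, measured 8.73, 3.92 and 3.84 in HT29 mock and 3.00, 2.84 and 1.82 in SW480 mock. These did not overlap but were not called (-0.81 ± 0.38, adjusted p = 0.075), while the summit bin overlapped. The bin after the summit holds another consensus match at chr19:45001395-45001424.
RELB second match: cggcggcgccGGGGAATTCCgccgccccgc

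**Figure D4:**
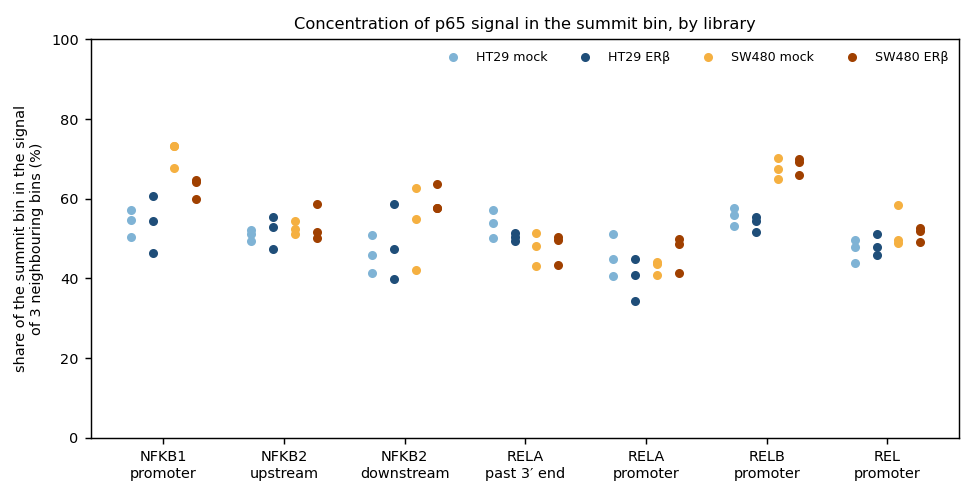
Share of the summit bin in the summed signal of 3 neighbouring 200-bp bins, in percent, one point per ChIP library and coloured by group. By this measure the 6 SW480 libraries lie above the 6 HT29 libraries at RELB, the ranges meet at NFKB1, and they overlap at the other summits. Over the whole listed stretch, which is not drawn, the lines are apart at NFKB1 and REL too. These stretches hold bins listed in HT29 groups only, so that separation is partly set by the listing rule.

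The other genes of the pathway were read in the same windows at the bin with the highest mean. All 6 genes of the IκB family, 8 of 9 feedback and survival genes and 10 of 14 upstream signalling genes had a listed bin, and 6, 7 and 7 of them had a highest bin that was tested. NFKBIA, which encodes IκBα, reached 19.5 (mean of 12 libraries), close to the 19.9 of NFKB2, and NFKBIB, which encodes IκBβ, and BCL3, a nuclear IκB protein, reached 15.1 and 14.2. BIRC3, an inhibitor of apoptosis, and its neighbour BIRC2 shared 1 bin at 18.7, and the ubiquitin-editing enzyme TNFAIP3 (A20) and its partner TNIP1 reached 18.3 and 15.9. The highest upstream gene was TRAF2, an adaptor of the TNF receptor, at 9.85 in a bin inside the gene. It lay under the genes just named but above others of their lists, such as NFKBIE (7.61) and CYLD (9.61). RIPK1, a kinase of the TNF receptor complex, reached 5.98 in a bin at the start of BPHL.

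In HT29, ERβ gave 0 calls in any list. In SW480 1 of 6 IκB genes, 2 of 7 feedback genes and 3 of 7 upstream genes were called higher with ERβ and 0 lower, beside the 27.4% of all tested bins, while 0 of the 5 subunit genes were at their highest bin. The medians were 0.48, 0.41 and 0.84 for the 3 lists and 0.57 for the subunit genes, against 0.65 for all tested bins. Between the mock groups 2 of 6, 2 of 7 and 2 of 7 were called lower in SW480, as was 1 of 5 subunit genes, beside 31.3% of all tested bins, and 0 were called higher in any list. Between the ERβ groups 2 of 6, 1 of 7 and 4 of 7 were called higher in SW480 and 0 of 5 subunit genes, beside 33.7% of all tested bins. For the difference between the ERβ effects, 2 of 7 feedback genes were called and 0 in the other lists, beside 9.79% of all tested bins. With the replicate block 3 of 6 IκB, 2 of 7 feedback, 7 of 7 upstream and 3 of 5 subunit genes were called higher with ERβ in SW480, beside 72.4% of all tested bins, and 2, 3, 7 and 3 for the difference of the effects, beside 68.2%. Between the mock groups 1, 1, 2 and 0 were then called lower, beside 28.8%, and between the ERβ groups 1, 1, 4 and 0 higher, beside 30.9%. With the median-ratio scaling 1 IκB and 5 feedback genes were called lower with ERβ in SW480 and 1 of each higher, with 0 upstream and 0 subunit genes, beside 3.37% of all tested bins lower and 6.52% higher. Between the mock groups 3 IκB, 5 feedback, 5 upstream and 2 subunit genes were then called higher in SW480, beside 29.1%, and 2, 2, 2 and 0 lower, beside 29.4%. Between the ERβ groups 1, 1, 4 and 0 were called higher, beside 29.2%, and 2, 0, 1 and 1 lower, beside 28.4%. For the difference of the effects 1 feedback gene was called lower with this scaling, beside 0.246%, and 0 genes of any list higher, beside 1.28%. The lists have few members, and the highest bin of a gene may belong to a neighbour, as at BIRC2, RIPK1 and TNIP2. The bin shared by BIRC2 and BIRC3 is counted for both in every feedback count, and the feedback median of 0.41 in SW480 is its value. TNIP2 is 1 of the 2 feedback genes called in SW480 and for the difference of the effects, and its bin lies in an exon of SH3BP2. TAB1 is 1 of the 3 upstream genes called in SW480 and 1 of the 4 called between the ERβ groups. Its bin lies between genes, 46721 bp from the canonical start of TAB1, and the nearest protein-coding start is that of MGAT3.

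**Figure D5:**
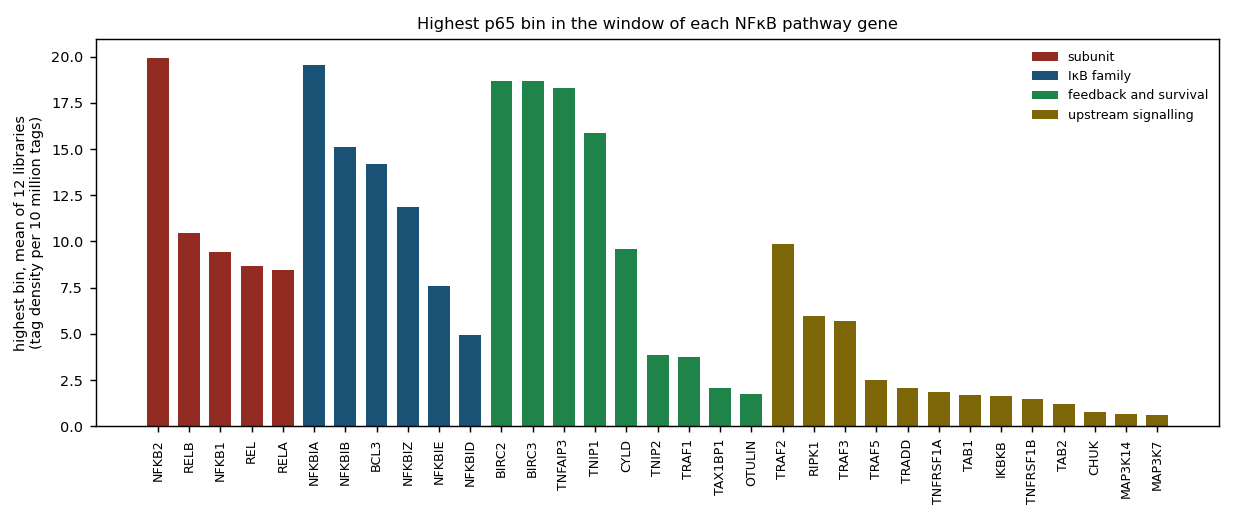
Highest bin in the window of each gene, without 1 upstream gene that is not reported here, as the mean of the 12 ChIP libraries in scaled tag density, coloured by list. NFKB2, NFKBIA, the bin shared by BIRC2 and BIRC3, and TNFAIP3 form the top at 18.3 to 19.9, and most upstream genes lie at or under the 2.48 of TRAF5.

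The promoters whose pattern over the 12 libraries was most like that of each member were read from 830 other genes with a tested promoter bin, after the median of all promoters in a library had been taken off. For NFKB2 they were SIRT2, with a Pearson r of 0.88, and MED15 and KLHL22, which share a bin, with 0.85. SIRT2 starts beside NFKBIB, and its bin is also the highest bin of NFKBIB, a gene of the IκB list. For NFKB1 they were ATOX1 (0.91), SSBP3 (0.78) and USP49 (0.77), for REL EIF2S3 (0.92), CCDC107 (0.86) and IL6ST (0.82), for RELB MRPL30 and MITD1 in a shared bin (0.88) and CCDC107 (0.87), and for RELA COL16A1 (0.79) and DBI and C2orf76 in a shared bin (0.75). Among the members themselves RELB and REL were most alike (0.81), while NFKB1 ran against REL (-0.62) and RELB (-0.56). These values describe 12 libraries of 2 lines, which share their line, condition and enrichment, and carry no test.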

How the data were processed

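Reads were mapped to GRCh38 by the authors with STAR, keeping reads with a single position, and made into HOMER tag directories. The deposited values are coverage signal, scaled per library to 10 M tags of 100 bp, and start at 0.05. Track intervals had a median length of 392 to 602 bp, so low values, inputs included, are averages over such lengths. No count can be read from these tracks, so no count test was run. The study took its ERβ inputs from another series of libraries.

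Signal was averaged in 200-bp bins of chromosomes 1 to 22 and X (pandas 2.3.3, numpy 2.4.6 and numba 0.67.0 under Python 3.11.15). Differences were fitted with limma 3.58.1 in R 4.3.3 (lmFit, eBayes with trend) on log2(signal + 1) over all 12 ChIP libraries and adjusted by Benjamini and Hochberg over 5689 tested bins. Genes came from GENCODE release 44, sequences from the GRCh38 reference with pysam 0.24.0, and figures from matplotlib 3.10.9. Exact permutation tests were two-sided. Genes named were all 5 members at each listed bin, the 3 highest genes of each list (1 upstream gene is not reported here), and the 3 promoters most like each member. A bin joins a stretch at a gap of at most 1 bin, and the leading bin has the highest 12-library mean.

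Libraries of the same replicate number were checked for pairing by the correlation of their deviations from the group means. It was 0.514, 0.177 and 0.200 in HT29 and 0.287, 0.172 and 0.239 in SW480, all above 0.1, so blocked values are given where they change the call of a summit bin or the count of a list. The labels do not say what a number shares, and HT29 mock replicate 2 correlated more with HT29 ERβ replicate 3 (0.224). For ERβ against mock and the difference of the ERβ effects, the block was the replicate number within each line. Between lines, the block gave a replicate number the same effect in both lines, although pairing was checked within lines only.

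The fit was tested on simulated data for SW480 ERβ against mock over 5689 bins. Of bins changed by 0.5, 1, 1.5 and 2 on the log2 scale it called 6%, 34%, 68% and 90%, and 0.0547% of unchanged bins. The simulated noise was independent between bins and libraries, and 200 bins were changed. The real libraries differ in enrichment over all tested bins, so these rates do not carry over to the comparisons above. Alternatives changed the pseudocount (0.25), bin grid (100 bp), filter, scaling, input handling, block, samples fitted and trend. The members and lists were chosen with earlier results of these data known.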

Additional observations from a re-analysis of the deposited data

Results flagged for a closer look

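At the NFKB1 bin on chromosome 4 from 102501401, the ERβ effect differed between the lines, by 1.55 on the log2(signal + 1) scale in the limma interaction term (adjusted p = 0.033). The median of this term over all tested bins was 0.83, so a large part of the 1.55 is shared with them. ERβ libraries were higher than mock libraries in 3 of 3 in SW480, and the HT29 groups overlapped. Input signal over this window is lower in SW480 than in HT29. The difference was 1.45 with each library divided by the local input (limma adjusted p = 0.0266) and 2.06 with the input subtracted (limma adjusted p = 0.00843). In these settings 28.5% and 24.9% of all tested bins were called, against 9.79% in the fit reported. The bin was not called with the median-ratio scaling or with the filter at 0.7. The call was also lost without replicate 1 of HT29 mock, replicate 2 or 3 of HT29 ERβ, any 1 library of SW480 mock, or replicate 2 or 3 of SW480 ERβ. The NFKB1 summit bin beside it was not called in the fit reported (limma adjusted p = 0.075).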

How the results depend on the processing

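Numbers of called bins of the subunit genes changed with the processing, and the cause was not tested. For SW480 ERβ against mock, 3 were called, and 7 with the input subtracted, 8 divided by local input, 8 with the compared groups alone, 6 without the trend, 15 with the replicate block, 11 without replicate 1 of both HT29 groups (chosen after seeing the data) and 0 to 10 without single libraries (9.23 to 54.5% of all tested bins). The shares of all tested bins called in these settings were 27.4%, 40.3%, 37.1%, 42.3%, 29.6%, 72.4% and 54.5% in that order, so they rose as well. With median-ratio scaling 3 were called in the opposite direction. For SW480 mock against HT29 mock, 4 were called lower. With the filter at 0.7 and no input limit it was 23 of 135 (3 higher, 20 lower, beside 46.5% of all bins tested there in either direction). Without replicate 1 of both HT29 groups 2 were called lower (25.5%), and 2 to 6 lower without single libraries (19.4 to 35.1%). For SW480 ERβ against HT29 ERβ, 1 was called higher, and 8 lower with median-ratio scaling, 9 with the filter at 0.7 (6 higher, 3 lower, beside 45.1%), 2 divided by local input (41.4%), 7 without replicate 1 of both HT29 groups (60.8%), 0 with the moved grid, the filter at 1.5, the replicate block or the compared groups alone, and 0 to 5 higher without single libraries (23.4 to 44.8%). For the difference of the ERβ effects, 1 was called, and 0 with the filter at 0.7 or median-ratio scaling, 3 with the input subtracted, 4 divided by local input, 14 with the replicate block, 2 without the trend and 6 without replicate 1 of both HT29 groups (24.9%, 28.5%, 68.2%, 11.4% and 30.2% of all tested bins from the subtracted input on), and 0 to 11 without single libraries (1.30 to 46.9%). HT29 ERβ against mock gave 0 under every alternative run. Of all tested bins, median-ratio scaling called 371 higher and 192 lower for SW480 ERβ against mock, where 1556 and 0 had been called, 1658 and 1670 between mock groups (492 and 1778 before), 1663 and 1618 between ERβ groups (1920 and 617), and 73 and 14 for the difference of effects (557 and 0). Of 35 summit differences 23 changed sign with median-ratio scaling, most of them not called under either scaling. Over all settings 26 changed sign in at least 1, of which 3 were called either in the fit reported or with the changed sign, 11 were called only in settings that kept the sign and 12 were called in none. The 3 were 0.49 at RELB between mock groups and -0.39 at the upstream NFKB2 summit between ERβ groups, both with median-ratio scaling, and 0.18 at NFKB1 between mock groups divided by local input. Depth is unknown from the tracks, and 3 libraries a group limit every test.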
